A study of Arabidopsis thaliana with 2 samples.

Results

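The class III peroxidases of Arabidopsis thaliana were compared between the wax-deficient mutant cer6-2 and the accession Ler-0, its wild type. The family was defined as the 73 loci that encode peroxidases 1 to 73, and 52 of them had an array feature annotated with that gene alone. These 52 are the members measured here, out of 9236 genes with such a feature. The other 21 loci have no value. They include PRXCA and PRXCB (AT3G49110 and AT3G49120), known for the oxidative burst of defence, PER64 (AT5G42180) of the Casparian strip, the cold-responsive RCI3 (AT1G05260), PER4 (AT1G14540), PA2 (AT5G06720), and RHS18 and RHS19 (AT5G22410 and AT5G67400), known from root hairs. The remaining 13 are AT1G05240, AT1G05250, AT1G14550, AT1G24110, AT1G77100, AT2G18140, AT2G24800, AT3G32980, AT4G08780, AT4G17690, AT4G31760, AT4G33870 and AT5G24070.

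Class III peroxidases are secreted haem enzymes of plants. In the cell wall they use hydrogen peroxide to oxidise monolignols, extensins and other phenolic compounds, which stiffens the wall and builds lignin, and they can also produce reactive oxygen that loosens it or takes part in defence. Many members are known chiefly from roots, and neighbouring genes of the family have often arisen by local duplication. CER6 encodes a condensing enzyme of the elongation of very-long-chain fatty acids, from which the surface wax is made.

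Both genotypes were untreated plants of 15 days (2 weeks in the design text), grown in days of 16 h light and nights of 8 h, at a relative humidity of 80% and 22 °C. RNA of the aerial parts came from 20 cer6-2 plants and 20 Ler-0 plants, pooled by genotype. Array 1 carried cer6-2 in Cy3 and Ler-0 in Cy5, and array 2 carried cer6-2 in Cy5 and Ler-0 in Cy3. The arrays are technical repeats of 1 biological replicate, so no p-value is given, and each SD below covers the 2 arrays only. No feature was annotated with CER6 alone, and the labels were not checked against the mutated gene.

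All values are log2 ratios of cer6-2 over Ler-0, so a negative value means lower in cer6-2. This direction is likely but not settled, because the deposited ratio was read as Cy5 over Cy3 by the scanner maker's convention. Reading the values as log10, by that convention and because they stop at 2, sets the sizes and not the direction. With the numerator exchanged, lower and higher change places and sizes stay. A gene was called lower or higher when each of the arrays put it at 2-fold or more on that side, which is a rule of size. Signal levels were not among the values used here, so a ratio near 0 may belong to a transcript near background. In pooled tissue, fewer cells of a type and less RNA per cell cannot be told apart.

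Of the 52 measured peroxidases, 7 were called lower in cer6-2 (13.5%) and 0 were called higher. Over all 9236 genes, 0.725% were called lower and 0.595% higher. The calls rest on 2 readings that no source states, log10 values and columns not yet turned for the dye swap. With log2 values, or with columns already turned, 0 of the 52 would be called lower. The family was taken up with these ratios known, so the counts describe it and carry no test. The called members were Prx37, AT4G36430, AT4G26010, AT2G38380, PRX52, AT3G01190 and PRX71, and they make up 10.4% of the 67 genes called lower.

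Prx37 (AT4G08770), whose overexpression is known to dwarf the plant, had the lowest ratio of the family. It stood at -2.90 in array 1 and -2.48 in array 2, with a mean of -2.69 ± 0.30 (SD, n = 2 arrays), a 6.45-fold lower level in cer6-2. It was the 4th lowest of the 9236 genes. AT4G36430 stood at -2.23 in array 1 and -1.76 in array 2, with a mean of -1.997 ± 0.336. It was the 12th lowest gene. For both, each array alone gave over 3-fold.

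AT4G26010, known to promote root hair growth, stood at -2.35 in array 1 and -1.35 in array 2. Its mean of -1.85 ± 0.71 had the widest spread of the 7, at 5.08-fold lower in array 1 and 2.55-fold lower in array 2. AT2G38380 had almost the same mean with the narrowest spread, -1.82 in array 1 and -1.86 in array 2, or -1.84 ± 0.03. The order of these 2 genes therefore differs between the arrays, and their means lie within the spread of the first.

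PRX52 (AT5G05340), known for lignin formation in the fibres of the stem, stood at -1.98 in array 1 and -1.51 in array 2, with a mean of -1.75 ± 0.33. AT3G01190 stood at -1.68 in array 1 and -1.22 in array 2, with a mean of -1.45 ± 0.32. PRX71 (AT5G64120), known to restrict cell expansion and to act in lignin formation, was the weakest call, at -1.01 in array 1 and -1.16 in array 2, with a mean of -1.09 ± 0.11, or 2.12-fold lower in cer6-2. Of the 7, 5 were further from 0 in array 1 and 2 were further from 0 in array 2.

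**Figure D1:**
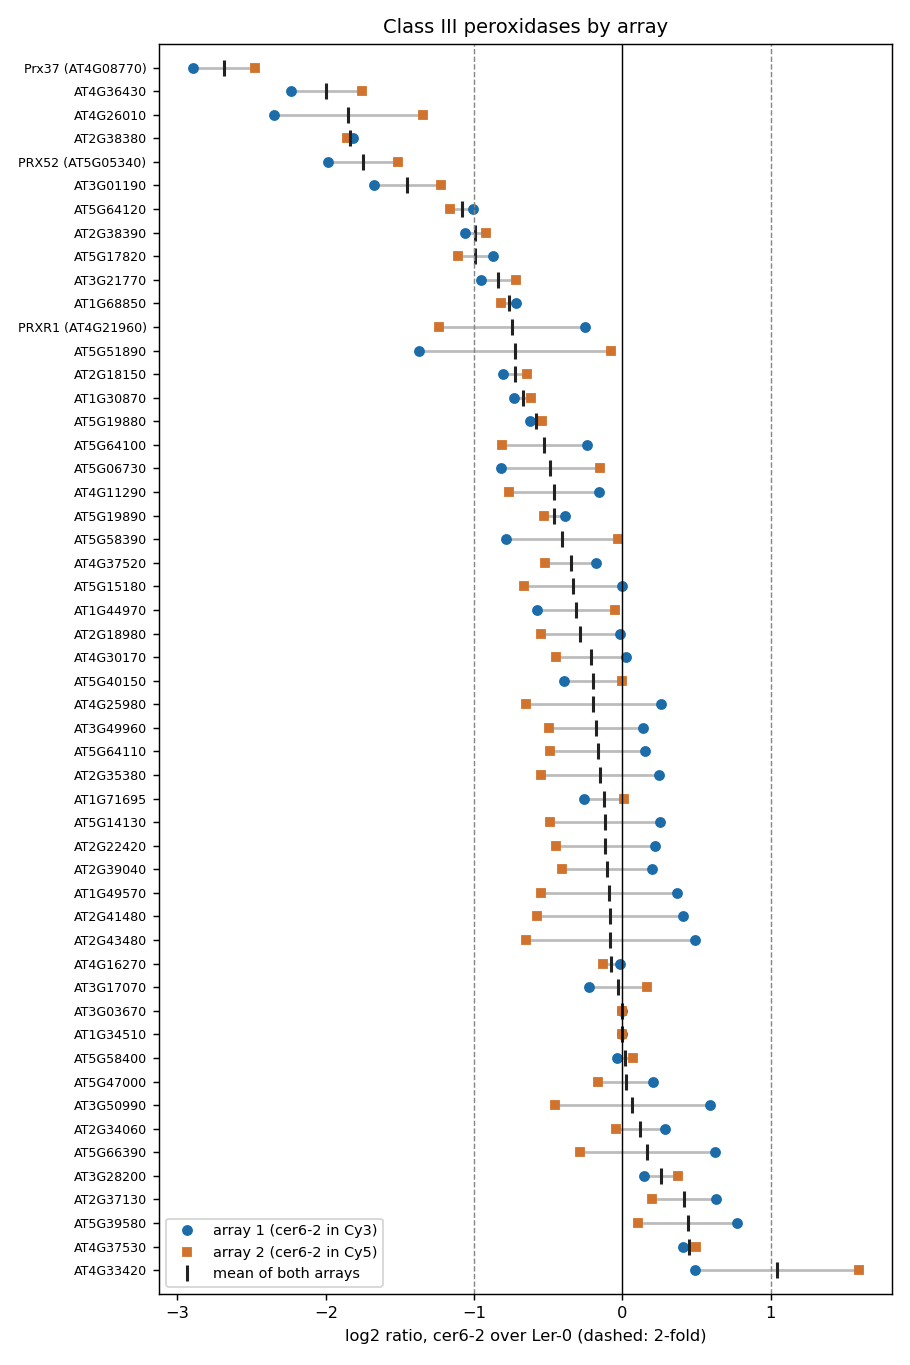
Log2 ratio of cer6-2 over Ler-0 (x axis) for the 52 measured class III peroxidases (y axis, sorted by mean), in array 1 (circles) and array 2 (squares), with the mean as a bar. The top 7 genes lie beyond the dashed 2-fold line in both arrays, from Prx37 at a mean of -2.69 to AT5G64120 at -1.09, and 1 gene, AT4G33420, has a mean above 1.

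Next to the threshold lay AT2G38390 and AT5G17820. AT2G38390 stood at -1.06 in array 1 and -0.92 in array 2, and AT5G17820, which the root growth regulator UPBEAT1 is known to repress, stood at -0.87 in array 1 and -1.11 in array 2. Each passed 2-fold in 1 array and fell short in the other, with means of -0.99 ± 0.10 and -0.99 ± 0.17. On the other side of the threshold lay PRX71, with -1.01 in its weaker array. Taken alone, array 1 put 9 members at least 2-fold lower and 0 higher, beside 2.33% and 1.23% of all genes, and array 2 put 9 lower and 1 higher, beside 2.17% and 1.83%.

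At a threshold of 1.5-fold in both arrays, 13 of 52 members were lower and 0 higher, where 1.91% of all genes were lower and 1.8% higher. The 6 members added were AT2G38390, AT5G17820, AT3G21770 (-0.84 ± 0.17), AT1G68850 (-0.77 ± 0.07), AT2G18150 (-0.73 ± 0.12) and AT1G30870 (-0.67 ± 0.09). Their arrays lay close together, with SDs of 0.07 to 0.17. At 3-fold, 3 members were lower, Prx37, AT4G36430 and AT2G38380, and over all genes 0.217% were lower and 0.119% higher.

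Another 14 members were below 0 in both arrays without reaching 1.5-fold in both. PRXR1 (AT4G21960) and AT5G51890 were the most uneven of them. PRXR1 stood at -0.26 in array 1 and -1.24 in array 2, and AT5G51890, known from lignifying vessels, stood at -1.38 in array 1 and -0.08 in array 2. Each was past 2-fold in 1 array alone, so 1 array decides the size of these ratios. The means of the 14 ran from -0.75 to -0.07. Beside those 2 and the neighbouring genes described further on, they were AT1G44970, AT2G18980, AT4G11290, AT4G16270, AT5G06730, AT5G15180 and AT5G40150.

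AT4G33420, also known from lignifying vessels, had the highest ratio of the family. It stood at 0.49 in array 1 and 1.60 in array 2, a mean of 1.04 ± 0.78, so it was 3.02-fold higher in cer6-2 by array 2 and 1.41-fold by array 1 and was not called. The other members above 0 in both arrays were AT4G37530 (0.41 in array 1 and 0.498 in array 2), AT5G39580 (0.78 in array 1 and 0.11 in array 2), AT2G37130 (0.63 in array 1 and 0.20 in array 2) and AT3G28200 (0.15 in array 1 and 0.37 in array 2). The means of these 4 were 0.45 ± 0.07, 0.44 ± 0.47, 0.42 ± 0.30 and 0.26 ± 0.16 in that order. The 5 members are 9.62% of the members, and 23.1% of all genes were above 0 in both arrays. Below 0 in both arrays were 27 members (51.9%) and 20.4% of all genes.

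The arrays gave opposite signs for 18 members (34.6%) and for 53.6% of all genes. Of the 18, 15 (28.8% of the 52 members) were above 0 in array 1 and below 0 in array 2. Those 15 ran from 0.03 to 0.62 in array 1 and from -0.65 to -0.04 in array 2, with means of -0.21 to 0.17. In the deposited columns such genes are below 0 on both arrays, the Cy3 side under the direction read here, whichever genotype carried that dye. Over all genes 23.8% had this pattern. The 15 were AT1G49570, AT2G34060, AT2G35380, AT2G39040, AT2G43480, AT3G49960, AT4G25980, AT4G30170, AT5G14130, AT5G47000, AT5G64110, AT2G22420, PRX25 (AT2G41480), PRX72 (AT5G66390) and PER36 (AT3G50990). Of these, AT2G22420, PRX25 and PRX72 are known from lignin formation, and PER36 is needed for mucilage release from the seed coat. The reverse pattern was found in 3 members (5.77%), AT1G71695, AT3G17070 and AT5G58400, with means of -0.12 to 0.02, and in 29.9% of all genes. AT1G34510 and AT3G03670 were listed at 0 in both arrays, as were 1.8% of all genes. They were kept among the 52 members. Of 22575 features, 1475 in array 1 and 1600 in array 2 were listed at exactly 0. Whether such a 0 is a measured ratio is not given in the sources used here.

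**Figure D2:**
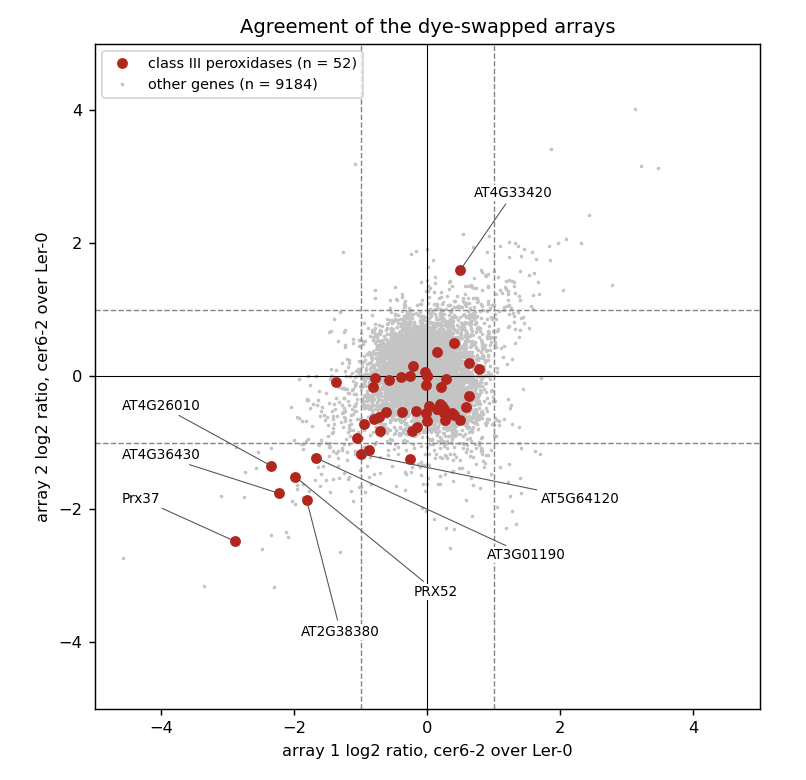
Log2 ratio of cer6-2 over Ler-0 in array 1 (x axis) and array 2 (y axis) for the 52 peroxidases (large points) and 9184 other genes (small points), with dashed lines at 2-fold. The 7 called peroxidases sit in the lower left corner and no peroxidase sits in the upper right one. AT4G33420 is past the line in array 2 alone.

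The mean ratio of 40 of the 52 members was below 0, as was that of 48.7% of all genes. The members' median was -0.21, and that of all genes was 0.00. It was -0.10 in array 1 and -0.51 in array 2, where all genes had -0.01 and 0.03, so the size of the family's median depends on the array. Without the 7 called members, the median of the other 45 was -0.17. Across the 52 members, which share the arrays and are not independent, the ratios of the arrays correlated with r = 0.71 (Spearman's rho 0.56). Over the 45 not called r was 0.32 (rho 0.33), and over the 9184 other genes it was 0.16 (rho -0.05). Leaving out the called members removes genes low in both arrays, which by itself tends to lower r. The family was taken up with these ratios known, so its r beside that of other genes is a description only.

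**Figure D3:**
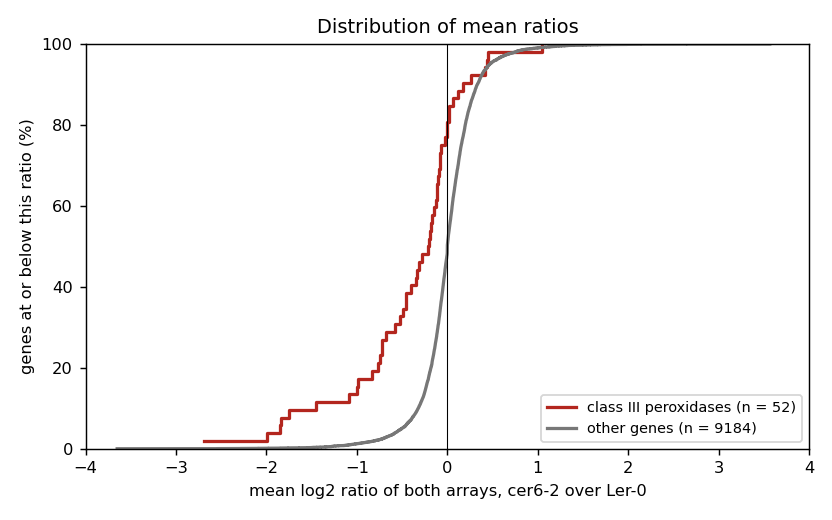
Cumulative share of genes (y axis, percent) by the log2 ratio averaged over both arrays, cer6-2 over Ler-0 (x axis), for 52 peroxidases and 9184 other genes. The peroxidase curve lies to the left over most of its length, with a median of -0.21 where the other genes have 0.00, and it meets the other curve near its upper end.

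Genes of the family that lie side by side were compared next. Members with at most 1 other gene between them formed 11 clusters of 23 loci, and 5 clusters had more than 1 measured member. Those 5 gave 7 pairs of neighbours. None of the 7 pairs was at least 2-fold apart in both arrays, and all 7 had the same order in both arrays, as had 70.4% of the 1326 possible pairs of measured members. Probes of such paralogs can share signal, and their sequences were not compared here.

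The neighbours AT2G38380 and AT2G38390 were both lower in cer6-2. The difference, AT2G38380 minus AT2G38390, was -0.75 in array 1 and -0.93 in array 2, a mean of -0.84 ± 0.13 on the log2 scale, or 1.79-fold. AT4G37520 and AT4G37530 stood on opposite sides of 0 in both arrays. AT4G37520 had -0.18 in array 1 and -0.52 in array 2, while AT4G37530 had 0.41 and 0.498. Their means were -0.35 ± 0.24 and 0.45 ± 0.07. The difference, first minus second, was -0.80 ± 0.31.

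The cluster of 3 neighbours AT5G64100, AT5G64110 and PRX71 had 1 called member. AT5G64100, known from root hairs, stood at -0.24 in array 1 and -0.81 in array 2, and AT5G64110 at 0.15 and -0.49, next to -1.01 and -1.16 for PRX71. The means were -0.53 ± 0.41, -0.17 ± 0.45 and -1.09 ± 0.11 in that order, and PRX71 was the lowest of the 3 in both arrays. AT5G64110 exceeded it by 0.92 ± 0.34 and AT5G64100 exceeded it by 0.56 ± 0.29, while AT5G64100 minus AT5G64110 was -0.36 ± 0.05.

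The remaining pairs differed by less than the spread between arrays. AT5G19880 stood at -0.63 in array 1 and -0.54 in array 2, and its neighbour AT5G19890 at -0.39 and -0.53, with means of -0.58 ± 0.06 and -0.46 ± 0.10 and a difference of -0.13 ± 0.16. AT5G58390 stood at -0.79 in array 1 and -0.03 in array 2, and AT5G58400 at -0.03 and 0.07, with means of -0.41 ± 0.54 and 0.02 ± 0.07 and a difference of -0.42 ± 0.46. Of the 7 called members, 3 lie among the 14 measured in clusters and 4 among the 38 outside them, where 0.725% of all genes were called lower. The difference between these shares was not tested. The partner of Prx37, AT4G08780, has no value, as have the partners of AT2G18150 and AT5G06730.

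**Figure D4:**
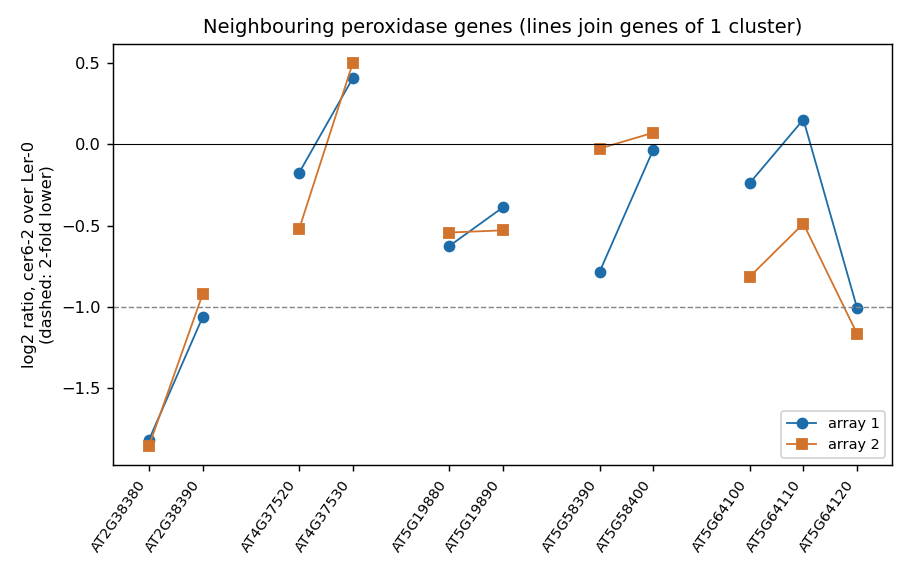
Log2 ratio of cer6-2 over Ler-0 (y axis) for neighbouring peroxidase genes (x axis), in array 1 (circles) and array 2 (squares), with lines joining the genes of 1 cluster. AT2G38380 and AT5G64120 are past the dashed 2-fold line in both arrays, and the AT4G37520 and AT4G37530 pair spans 0.

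Genes of other families next to the called peroxidases were read beside them. Of the genes within 2 places on either side of a called member, 7 non-members were measured. None of them was called, and their means ran from -0.24 to 0.24. Over all genes 0.725% were called lower and 0.595% higher, so 0 of 7 is near that share. AT3G01190 had no measured neighbour.

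Members were also grouped by the process they are known from. Over the family 13.5% were called lower, and over all genes 0.725%. Each list had only 3 to 5 measured members, and differences between lists were not tested. Of 5 measured members of the list for lignin in vessels and fibres, 2 were called lower, PRX52 and PRX71, and the other 3 (AT2G22420, PRX25 and PRX72) had opposite signs in the arrays. The median of the list was -0.11, with 0.22 in array 1 and -0.57 in array 2. The list leaves out 2 measured members also known from lignifying vessels, AT4G33420, the highest of the family at 1.04 ± 0.78, and AT5G51890 at -0.73 ± 0.92, and neither was called. Among 4 measured root hair members, 1 was called lower, AT4G26010. AT1G30870 and AT5G64100 were below 0 in both arrays and AT5G39580 above 0 in both, and the median was -0.60.

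All 3 UPBEAT1 targets were below 0 in both arrays, as were 51.9% of the members and 20.4% of all genes. None of the 3 was called. AT5G17820 had the largest ratio in size, AT4G11290 stood at -0.46 ± 0.43, and AT4G16270, which also acts in the anther, stood at -0.07 ± 0.08. The 3 measured Casparian strip members, AT1G44970 (-0.31 ± 0.37), AT4G11290 and PRX72 (0.17 ± 0.64), included no call, and the anther and seed members none of 3. Of 7 members listed for defence and the oxidative burst, 3 were measured, and they went both ways, with PRX71 called lower and AT2G37130 and AT5G39580 at 0.42 ± 0.30 and 0.44 ± 0.47.

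Genes that work with these enzymes were thinly covered. The 8 lists of other genes and markers held 96 loci, 18 of them measured, and none was called either way. Over all genes 0.725% were called lower and 0.595% higher, so 0 of 18 is near that share. Of the enzymes of monolignol synthesis, which make the substrates of lignin, 2 of 18 were measured, HCT at -0.06 ± 0.05 and CCR2 at 0.51 ± 0.53. The laccase LAC9, of a family that also oxidises monolignols, stood at -0.12 ± 0.12 and was the only one of 17 measured. Of 10 NADPH oxidases, which supply reactive oxygen at the plasma membrane, 3 were measured, from RBOHE at -0.18 ± 0.49 to RBOHI at -0.01 ± 0.44, each with opposite signs in the arrays. The ascorbate peroxidases of the chloroplast TAPX and SAPX, 2 of 18 intracellular enzymes of peroxide and superoxide removal, stood at -0.14 ± 0.20 and -0.08 ± 0.04. EXT2, an extensin and the only one of 5 measured, stood at -1.79 in array 1 and -0.35 in array 2. No gene of the 7 in the Casparian strip list was measured.

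Since many peroxidases are known from roots, root markers were read beside them, although the RNA came from aerial parts. Of 15 root markers, 6 were measured and none was called, where 0.725% of all genes were lower and 0.595% higher. With so few root or leaf markers, having none called is near that share. Their means ran from -0.75 ± 0.26 for BGLU21 to 0.73 ± 0.08 for PYK10, the root beta-glucosidase of the ER body, with XTH26 listed at 0 in both arrays. The root hair expansins EXPA7 and EXPA18 had opposite signs in the arrays, as had BGLU22. The list's median was -0.21, with 0.06 in array 1 and -0.47 in array 2. Leaf markers had a median of 0.08, with 3 of 6 measured and none called, from RCA at 0.08 ± 0.04 to LHCB4.2 at 0.25 ± 0.66. Whether any root tissue contributed to the peroxidase ratios was not tested.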

How the data were processed

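RNA pools of cer6-2 and Ler-0 aerial parts were compared on 2 Agilent two-colour arrays with exchanged dyes, after labelling with an Agilent direct kit, per the labels. The authors deposited 1 ratio per feature and array, 22575 features, read as log10 because the values stop at 2. How the background was corrected and the dyes were normalized, and any filter, software or genome build, is not given in the sources used here. Having 2 arrays limits the precision.

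Array 1 was multiplied by -1 and both arrays were turned to log2. Gene names were matched by gene identifier, using the platform annotation and the TAIR10.1 gene table. This gave 9317 features with 1 gene, 52 of them for the members, 1 feature each. For 32 member features the listed RefSeq transcript belonged to the member, and the other 20 carried other accessions. The 13258 remaining features were not used. Neighbours were taken from the order of the gene table. Protein identity, planned for neighbours, was not computed. The calling code was tested on simulated data. Python 3.11.15, pandas 2.3.3 and NumPy 2.4.6 were used.

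Every member is accounted for. The rule for named genes gives both arrays, mean and SD for called members, for neighbours with several measured members and for the highest and lowest 5, and ranges for the rest. Members and lists were chosen with earlier results of these data known. Medians need at least 3 measured genes. Alternatives were each array alone, other thresholds, centring, a filter on features, the average of features, the log base and the direction.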

Additional observations from a re-analysis of the deposited data

How the results depend on the processing

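The 7 peroxidases called lower were the same genes after centring and without features over 2-fold apart between arrays. That filter only just kept AT4G26010, at -2.346 in array 1 and -1.348 in array 2. They were also the same by the mean of both arrays and with the median of a gene's features. Neither of these could lose a call, since a call needs both arrays and each member has 1 feature. At 1.5-fold the count was 13 and at 3-fold 3. Read as log2 or as turned before deposit it was 0 in each case. Array 1 or array 2 alone gave 9, the 7 and 2 others each, where the 7 stay by construction. AT4G33420 made the count of higher members 1 by the mean of both arrays, and 0 to 1 by array. The members' median ran from -0.508 to -0.096 by array. Over all genes 67 were lower and 55 higher. These counts were 176 and 166 at 1.5-fold, 20 and 11 at 3-fold, 121 and 91 by the mean, 200 to 215 and 114 to 169 by array, 0 and 0 as log2, and 13 and 2 as turned before deposit. In that last reading 0 of 7 pairs of neighbours had the same order in both arrays, by construction, and the mean changed sign for 23 of 52 members, 18 not called and 5 called, Prx37 (AT4G08770, 0.21), AT4G36430 (0.24), AT4G26010 (0.499), PRX52 (AT5G05340, 0.24) and AT3G01190 (0.23). Among root markers 0 to 1 was lower by array and 1 higher at 1.5-fold, and the extensin EXT2 was lower by array 1 alone (0 to 1). The cause was not tested where construction does not set it. No paired analysis was possible because there is 1 pool per genotype. Without signal over background, its limit on weak transcripts is unknown.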
